A study of Danio rerio with 6 samples.

Results

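The genes described here are the 200 steadiest moderately expressed genes of zebrafish thrombocytes, the nucleated blood cells that do for fish what platelets do for mammals. They were chosen by their own read counts. CPM (the counts of a gene divided by the total of its library and multiplied by 1e+06) was computed in 6 libraries. The 200 genes with the highest smallest CPM were dropped, genes with a mean of at least 20 CPM and a value above 0 in every library were kept, and the 200 of these with the lowest ratio of largest to smallest CPM were taken. They are 200 of 5450 eligible genes and of 32520 genes in the table. Steadiness across these libraries is therefore what defined the genes and is given as a description, with no test.

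The miR-150 group was 3 libraries from larvae with a transgene in which the itga2b promoter drove the microRNA miR-150 together with the red fluorescent protein tagRFP. The control group was 3 libraries from larvae with a transgene in which the same promoter drove tagRFP with no added microRNA. Larvae of both groups also carried EGFP, a green fluorescent protein, under the itga2b promoter, were raised at 28.5 °C in medium with 0.003% PTU, which blocks pigment, and were dissociated at 5 days after fertilization, when cells positive for green and red fluorescence were sorted. By design, expression of the microRNA was thus tied to activity of the itga2b promoter, and where it was expressed was not checked here. The number of larvae behind a library and of founders behind a line is not given in the sources used here. The labels call the replicates biological, but nothing says that they came from separate clutches, so the spread and the p-values below measure the variation between these samples.

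A messenger RNA can be steady between samples of a cell type when its share of the RNA pool changes little with the state of the cell. Genes of basic cell functions, such as splicing, protein degradation, membrane traffic and respiration, are often looked for among such transcripts, and a few of them serve as references against which PCR measurements are scaled. A share is a relative quantity. A gene is steady in CPM only against the sum of all other RNA in the library, and this sum moves when a few abundant transcripts move.

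The ratio of largest to smallest CPM was 1.12 for the steadiest gene, 1.42 for the gene at rank 50, 1.53 for the gene at rank 100 and 1.65 for the last of the 200. The median over all eligible genes was 3.73, and 958 eligible genes (17.6%) had a ratio of at least 10. The limit cut through a dense run of values. Just inside it stood calm2a (a calmodulin), ppp4r3b (a subunit of phosphatase 4), SNX6 (a sorting nexin), SLC25A20 (the mitochondrial carnitine carrier) and PREB (an exchange factor of the vesicle GTPase SAR1), with ratios of 1.648 to 1.6497. Just outside it stood PSMA3, matr3l1.1, PLPP5, lsm12b and C7H11orf68, with ratios of 1.651 to 1.655. The mean level of the 200 genes ran from 20.3 CPM (BRD7) to 263 CPM (VDAC1), with a median of 57.0 CPM, against 50.6 CPM for the other eligible genes, and 157 of the 200 had a mean under 100 CPM. Each gene rested on 234 to 6518 counts per library. Counting error alone gives a median coefficient of variation of 3.18% at these depths. The observed median was 16.2% (4.82% for the lowest and 22.5% for the highest), against 42.5% over all eligible genes, and 0 of the 200 genes had a chi-square per degree of freedom below 2 against equal shares. The 200 genes were thus steady by comparison, and each varied more than sampling of its reads would give.

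The libraries held 17353158, 22150519 and 16616697 counts in miR-150 replicates 1, 2 and 3, and 20559611, 12972258 and 17330397 counts in control replicates 1, 2 and 3. miR-150 replicate 3 stood apart. Summed over the 10 thrombocyte markers found by symbol, the level was 8471, 6897 and 1985 CPM in miR-150 replicates 1, 2 and 3, against 9986, 7810 and 6900 CPM in the controls, and the receptor gene P2RY12 had 0 counts in all 6. The driver gene itga2b itself had 5384, 4002 and 1052 CPM in the miR-150 libraries and 5727, 4194 and 4002 CPM in the control libraries. A further 113 genes were picked for levels in miR-150 replicates 2 and 3 at least 8-fold those of each of the other 4 libraries. Each had at least 100 counts in both. They took 0.276%, 17.9% and 26.6% of the counts of miR-150 replicates 1, 2 and 3, against 0.0546%, 0.237% and 0.0441% in the controls. Which libraries have the high and the low shares was fixed by that choice. Markers of other cells were also read, with epidermal markers summing to 2545 to 10522 CPM in miR-150 libraries and 619 to 20304 CPM in controls, muscle markers to 482 to 807 CPM against 345.8 to 1368 CPM, and liver markers to 50.8 to 119.6 CPM against 42.7 to 4976 CPM, the highest in control replicate 3. Erythroid markers summed to 30.1 to 329.8 CPM against 27.5 to 127 CPM and progenitor markers to 138 to 599 CPM against 622 to 844 CPM, while macrophage markers were at 0 CPM in all 3 miR-150 libraries and at 0 to 5.77 CPM in the controls. Most of the progenitor sum was cd34, with 365, 540 and 125 CPM against 709, 584 and 519 CPM. The groups overlapped in cd34, RUNX1 and gata2b and did not in MYB (18.6, 20.4 and 5.90 CPM against 88.9, 34.7 and 63.8 CPM). Neutrophil markers summed to 0 to 66.5 CPM against 0 to 35.5 CPM, endothelial markers to 28.4 to 68.7 CPM against 6.23 to 59.4 CPM, and lymphoid markers to at most 0.542 CPM against 0.981 CPM. In bulk libraries, fewer cells of a type and less RNA per cell cannot be told apart. None of the 200 steady genes is in a marker list or in the group of 113 genes. The part of these differences in the choice of the 200 genes was not tested as such. Omission of each library and changes of totals or scaling are described further on. With totals that leave out the 113 genes, most of the 200 genes were not kept.

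**Figure D1:**
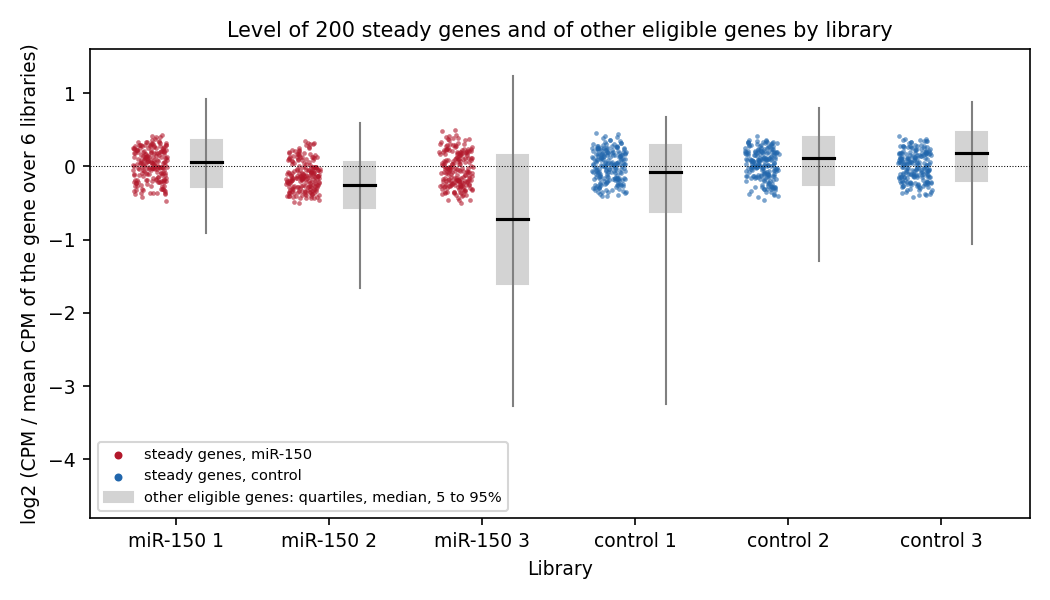
Level of the steady genes and of the other eligible genes in each library, as log2 of the CPM over the mean CPM of the gene in all 6 libraries. Red and blue points are the 200 steady genes in miR-150 and control libraries, and grey boxes are the quartiles, median and 5 to 95% range of 5250 other eligible genes. The grey median lies lowest, at -0.72, in miR-150 replicate 3, while the steady genes stay around 0 in all 6.

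The 200 genes together took 1.477%, 1.326% and 1.412% of the counts of miR-150 replicates 1, 2 and 3, against 1.499%, 1.502% and 1.471% of control replicates 1, 2 and 3. The mean share was 1.40% ± 0.0759 in the miR-150 group and 1.49% ± 0.0172 in the control group (SD, n = 3 each). The lowest value of a gene fell in miR-150 replicate 2 for 66 of the 200 genes and in each of the other 5 libraries for 20 to 37. The median of the other 5250 eligible genes, as log2 of the level over the mean level of the gene, was 0.06, -0.25 and -0.72 in miR-150 replicates 1, 2 and 3, against -0.08, 0.12 and 0.18 in the controls. The lowest value of those genes fell in miR-150 replicate 3 for 51.1% of them, the library that held the lowest value of 37 of the 200 steady genes. The plot of levels by library shows the 200 genes as a narrow band beside the wide boxes of the rest.

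The steadiest gene was CS, which codes for citrate synthase, the enzyme that opens the citric acid cycle. It had 144, 135 and 130.2 CPM in miR-150 replicates 1, 2 and 3, against 132, 142 and 146 CPM in control replicates 1, 2 and 3. Its means were 136 ± 6.80 CPM in the miR-150 group and 140.4 ± 7.30 CPM in the control group (SD, n = 3 each), and the values of the groups interleave. Even for CS the chi-square per degree of freedom was 5.62.

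The next gene was phc2a, whose product belongs to the Polycomb repressive complex that keeps developmental genes silent. It had 55.4, 61.5 and 51.6 CPM in the miR-150 libraries and 60.8, 63.1 and 59.7 CPM in the control libraries. THOC1, a subunit of the THO complex that couples transcription to export of messenger RNA, had 38.4, 40.2 and 39.0 CPM in the miR-150 libraries and 39.1, 40.7 and 32.9 CPM in the control libraries. In THOC1 5 of the 6 values lie within 38.4 to 40.7 CPM and control replicate 3 sets the ratio alone. TALDO1, the transaldolase of the pentose phosphate pathway, had 152, 124 and 159 CPM in the miR-150 libraries and 140.5, 129.7 and 127 CPM in the control libraries. The groups overlap in TALDO1, whose highest and lowest values are both in miR-150 libraries.

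ERLEC1, a lectin of the endoplasmic reticulum that works in the disposal of misfolded glycoproteins, ranged from 49.6 to 56.6 CPM in the miR-150 libraries and from 47.2 to 60.6 CPM in the control libraries. GNAS, the stimulatory G protein alpha subunit that raises cyclic AMP, a signal that holds mammalian platelets at rest, ranged from 19.1 to 24.7 CPM in the miR-150 libraries and from 23.6 to 24.6 CPM in the control libraries. OTUB1, a deubiquitylating enzyme, had 45.5, 46.5 and 48.4 CPM in the miR-150 libraries, against 43.0, 39.3 and 37.4 CPM in the control libraries. The OTUB1 groups did not overlap by library totals, all 3 miR-150 values being the higher, but did on the TMM scale described further on. A further gene among the 10 steadiest carries only a clone-based name, has no role given here and ranged from 94.7 to 115 CPM in the miR-150 libraries and from 103 to 123 CPM in the control libraries.

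**Figure D2:**
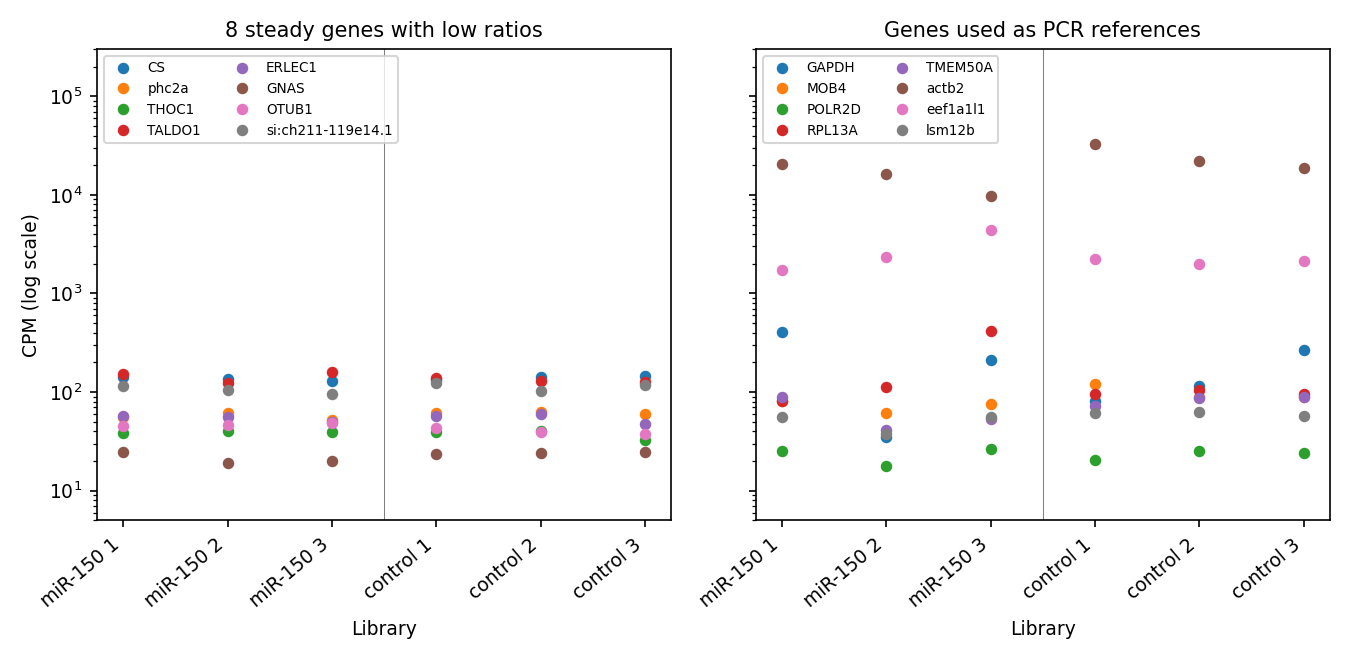
CPM (log scale) in each library of 8 of the steadiest genes, at left, and of 8 genes used as PCR references, at right; the line divides miR-150 from control libraries. The 8 genes stay nearly level, while GAPDH spans 35.0 to 409 CPM and RPL13A stands at 417 CPM in miR-150 replicate 3.

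By gene list, 78 of the 200 genes fell in at least 1 of 21 lists of cell functions matched by symbol, and each list is read against the 3.67% of all eligible genes that are in the set. The endosome and lysosome list held 17 of its 123 eligible genes (13.8%), the splicing list 9 of 71 (12.7%), the list of hnRNPs and mRNA handling 6 of 49 (12.2%), the proteasome list 5 of 42 (11.9%) and the list of phosphatases and 14-3-3 proteins 6 of 52 (11.5%). The list of RNA polymerase II and mediator held 4 of 46 (8.70%), the actin list 5 of 58 (8.62%), the list of vesicle coats 5 of 70 (7.14%), the ubiquitin list 7 of 119 (5.88%) and the oxidative phosphorylation list 4 of 79 (5.06%). Smaller counts were those of mitochondrial import with 2 of 10, mitochondrial ribosomal proteins with 2 of 17, and the nuclear pore with 2 of 43, SEC13 and NUP88. The lists match symbols by pattern, so that MYLIP, a ubiquitin ligase, counts in the actin list, and RAB3GAP2, a regulator of Rab proteins, in the endosome list. Complexes named below were grouped after the values were seen.

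The endosome and lysosome list gave the most genes when all 6 libraries were used, and it is also the list with the most eligible genes. In a set chosen without miR-150 replicate 3, described further on, the Rab GTPases held 1 of 29 and vesicle coats 1 of 70. The vacuolar ATPase then held 2 of 15 and clathrin with its adaptors 2 of 18. The vacuolar ATPase, the proton pump that acidifies endosomes, lysosomes and granules, had 5 of its 15 eligible genes in the set, atp6v1e1b, ATP6V1G1, ATP6V0D1, ATP6V0C and ATP6V1H, and the median ratio over the 15 was 1.82. The gene atp6v1e1b, for the E subunit of the peripheral part, had 71.6, 61.6 and 76.5 CPM in the miR-150 libraries and 68.1, 53.8 and 61.2 CPM in the control libraries. ATP6V1G1, for the G subunit that pairs with it, had 70.6, 74.6 and 75.6 CPM in the miR-150 libraries and 75.5, 72.7 and 52.7 CPM in the control libraries. The lowest value lay in a control library for each, control replicate 2 for atp6v1e1b and control replicate 3 for ATP6V1G1.

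Clathrin and its adaptors, which select cargo at the plasma membrane, Golgi and endosomes, had 5 of 17 eligible genes in the set. AP2B1, of the adaptor of plasma membrane endocytosis, had 130.1, 108 and 94.5 CPM in the miR-150 libraries and 118, 113 and 128 CPM in the control libraries. AP3D1, of the adaptor needed in mice for the dense granules of platelets, had 41.4, 41.3 and 32.1 CPM in the miR-150 libraries and 38.8, 30.8 and 41.5 CPM in the control libraries. The groups overlap in each, and the lowest value of AP3D1 was in control replicate 2. The other 3 were ap1s2, GGA1 and CLTA, with ratios of 1.498, 1.58 and 1.61. Rab GTPases, the switches that give membranes their identity, had 5 of 27 in the set. RAB35, of endocytic recycling, had 54.3, 49.6 and 64.3 CPM in the miR-150 libraries and 64.5, 60.5 and 45.7 CPM in the control libraries. RAB27B, which acts in granule release by mouse platelets, had 20.28, 21.53 and 25.998 CPM in the miR-150 libraries and 21.79, 28.98 and 26.02 CPM in the control libraries. RAB43, RAB1B and RAB14 had ratios of 1.56, 1.62 and 1.62. Of the vesicle coats between endoplasmic reticulum and Golgi, sar1b, the GTPase that starts COPII coats, had 155, 109.9 and 120.2 CPM in the miR-150 libraries and 124, 113 and 117 CPM in the control libraries, and SEC13, a shell protein of COPII that is also in the nuclear pore list, had 77.3, 73.1 and 78.5 CPM against 93.6, 109.5 and 93.5 CPM. The SEC13 groups did not overlap by library totals, the miR-150 values being the lower, but did on the TMM scale. The other members of that list were COPE, GOLGA2 and PREB, all with ratios of 1.65.

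The splicing genes of the set came from several steps of the reaction. PRPF6, which bridges the particles of the tri-snRNP, had 63.0, 61.2 and 57.8 CPM in the miR-150 libraries and 57.8, 78.2 and 69.1 CPM in the control libraries. PRPF19, the core of the complex that activates the spliceosome, had 71.1, 63.3 and 74.7 CPM in the miR-150 libraries and 52.8, 73.4 and 51.7 CPM in the control libraries. RBM39, a splicing factor related to U2AF, had 129, 96.5 and 147 CPM in the miR-150 libraries and 138, 122 and 129 CPM in the control libraries. Control replicate 2 was highest for PRPF6 and miR-150 replicate 3 for the other genes of this group of 3. By complex, 3 of 9 eligible genes of the U5 particle and tri-snRNP were in the set (PRPF6, SNRNP27 and SNRNP200) and 2 of 11 of the U2 factors (SF3B2 and SF3A1). RBM25, SF3B2, RBM5, srsf7a and SF3A1, also of the list, had ratios of 1.53 to 1.62. Among the genes for handling of messenger RNA, cnot6b, a deadenylase subunit, had 36.2, 25.2 and 24.6 CPM in the miR-150 libraries and 24.9, 37.1 and 29.0 CPM in the control libraries. The other members of the list beside THOC1 were HNRNPA1L2, hnrnpul1l, alyref and CPSF6. The export adaptor alyref had 123, 137 and 125 CPM in the miR-150 libraries and 185, 176 and 202 CPM in the control libraries, groups that did not overlap by library totals but did on the TMM scale.

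The proteasome genes of the set came from the core and from the cap. PSMB5, a catalytic subunit of the core, had 142, 163 and 176 CPM in the miR-150 libraries and 168, 188 and 149 CPM in the control libraries. PSMD7, of the lid, had 41.1, 54.4 and 51.3 CPM in the miR-150 libraries and 41.8, 38.4 and 36.6 CPM in the control libraries. PSMC6, an ATPase of the base, had 137, 181 and 206 CPM in the miR-150 libraries and 155, 209.7 and 136 CPM in the control libraries. The groups overlap in each of these. PSMD11 and PSMA4 had ratios of 1.601 and 1.65, PSMA3 was the first gene outside the limit, and the 5 were all of the set among 37 eligible subunits of the 26S proteasome proper. The median ratio of the 42 eligible genes of the list was 2.22. In the ubiquitin list OTUB1 was followed by ube2d1b, a conjugating enzyme with 45.7, 48.2 and 66.0 CPM in the miR-150 libraries and 46.7, 60.4 and 50.8 CPM in the control libraries. COPS7A and COPS3, subunits of the COP9 signalosome that removes NEDD8 from cullin ligases, had ratios of 1.48 and 1.56, and 2 of the 7 eligible genes of that complex were in the set.

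In the mitochondrion, the citric acid cycle had 4 of 17 eligible genes in the set: CS, SDHB, MDH2 and SUCLG1. SDHB, the iron-sulfur subunit of succinate dehydrogenase, had 130.0, 155 and 159.5 CPM in the miR-150 libraries and 116, 134 and 115 CPM in the control libraries. Its partner subunit SDHA had 212, 125 and 139 CPM in the miR-150 libraries and 84.8, 113 and 147 CPM in the control libraries, with a ratio of 2.498, outside the set. MDH2, the malate dehydrogenase of the matrix, had 192, 152 and 198 CPM in the miR-150 libraries and 171, 135 and 135 CPM in the control libraries. By library totals SDHB and SDHA, subunits of a single enzyme, thus differed in steadiness. On the TMM scale described further on, their ratios were nearly equal, at 2.01 and 2.02. The oxidative phosphorylation list gave cycsb (a cytochrome c), UQCRC2 (complex III), SDHB and NDUFV1 (complex I), with ratios of 1.33 to 1.40, among 79 eligible genes whose median ratio was 3.12. The import channel TOMM40 had 76.2, 67.9 and 79.5 CPM in the miR-150 libraries and 63.5, 95.5 and 70.2 CPM in the control libraries, and VDAC1, the porin of the outer membrane, had 204, 226 and 309 CPM against 317, 286 and 238 CPM. In the cytosol, the phosphoglycerate kinase gene listed as PGK2 had 219, 257 and 232 CPM in the miR-150 libraries and 299, 239 and 266 CPM in the control libraries. TPI1 was the other of 2 steady genes among 17 eligible genes of glycolysis.

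Protein phosphatase 2A, a heterotrimer that opposes many kinases, had 5 of 13 eligible genes in the set. The B subunit gene ppp2r2ab had 32.0, 33.8 and 29.2 CPM in the miR-150 libraries and 24.0, 30.8 and 35.0 CPM in the control libraries. The catalytic subunit gene ppp2cb had 128, 89.9 and 124 CPM in the miR-150 libraries and 103, 124 and 135 CPM in the control libraries. PPP2R5D, a B′ subunit, had 61.8, 50.2 and 47.3 CPM in the miR-150 libraries and 66.9, 71.2 and 64.2 CPM in the control libraries, groups that overlapped on the TMM scale but not by library totals. PTPA, the activator of this phosphatase, had 31.6, 27.7 and 34.2 CPM in the miR-150 libraries and 22.7, 21.7 and 22.6 CPM in the control libraries. By totals PTPA lay higher in the miR-150 libraries and PPP2R5D lower, so the genes of the phosphatase had no common direction. Of the actin list, ACTR1A, the actin-related protein of the dynein cofactor dynactin, had 177, 136 and 165 CPM in the miR-150 libraries and 148, 163 and 139.9 CPM in the control libraries. The RhoA genes rhoaa and rhoab, whose mammalian counterpart drives contraction of activated platelets, had ratios of 1.65 and 1.55. The gene rhoaa had 296, 185 and 180.1 CPM in the miR-150 libraries and 266, 297 and 269 CPM in the control libraries. These genes are close copies, and how the counting split reads between them is not given in the sources used here. The same holds for 21 of the 200 genes whose symbol is shared with another identifier.

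Of the genes for transcription, POLR2D, a small subunit of RNA polymerase II, had 25.13, 17.97 and 26.54 CPM in the miR-150 libraries and 20.53, 24.98 and 23.83 CPM in the control libraries. CCNT2, a cyclin of the elongation kinase P-TEFb, had 83.3, 55.4 and 57.3 CPM in the miR-150 libraries and 61.0, 78.6 and 83.9 CPM in the control libraries. MED19, a mediator subunit, had 25.6, 24.8 and 28.3 CPM in the miR-150 libraries and 39.1, 36.0 and 36.0 CPM in the control libraries. The groups overlap for POLR2D and CCNT2, and those of MED19 do so on the TMM scale but not by library totals. Chromatin regulators held 3 of 105 eligible genes (2.86%), the remodeler CHD9, the acetyltransferase gene kat5a and BRD7. The histone variant gene h2ax1 had 177, 177 and 191 CPM in the miR-150 libraries and 233, 234 and 211 CPM in the control libraries.

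Some lists were nearly or wholly absent from the set. None of the 69 eligible genes of the cytosolic ribosomal list was in it, and the same held for 65 after removal of 3 kinases of ribosomal protein S6 and an RPS19-binding protein that the pattern had taken in. The median ratio of the 69 was 4.04. As log2 of the level over the mean level of each gene, their median was -0.76, -0.36 and 1.23 in miR-150 replicates 1, 2 and 3, against -0.40, -0.40 and -0.41 in the controls, so miR-150 replicate 3 lay apart. None of 18 aminoacyl-tRNA synthetase genes was in the set (median ratio 5.38). The same held for 11 thrombocyte and platelet genes (median ratio 5.90) and for 7 genes of the microRNA pathway. Lowest in miR-150 replicate 3 were all 11 thrombocyte and platelet genes, 5 of the 7 microRNA pathway genes and 0 of the 18 synthetase genes. Over all eligible genes it was 2719 of 5450, so the 5 of 7 is not read as a trait of the microRNA pathway. On the TMM scale described further on, 1 of 6 eligible microRNA pathway genes was among the 200 steadiest. Translation factors held 1 of 60, EIF2B2, a subunit of the exchange factor of eIF2, and chaperones 1 of 50, HSPA4. At the share of all eligible genes that are in the set, lists of these sizes would hold few genes or none. The low counts are therefore given as counts only. With all 6 libraries, the ribosomal list held 0 of 69 genes, the splicing list 9 of 71 and the list of vesicle coats 5 of 70. These counts were not kept without miR-150 replicate 3. The set rebuilt without that library, described further on, held 18 of 80 ribosomal genes, 2 of 70 splicing genes and 1 of 70 genes of vesicle coats. The endosome list then held 10 of 130.

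**Figure D3:**
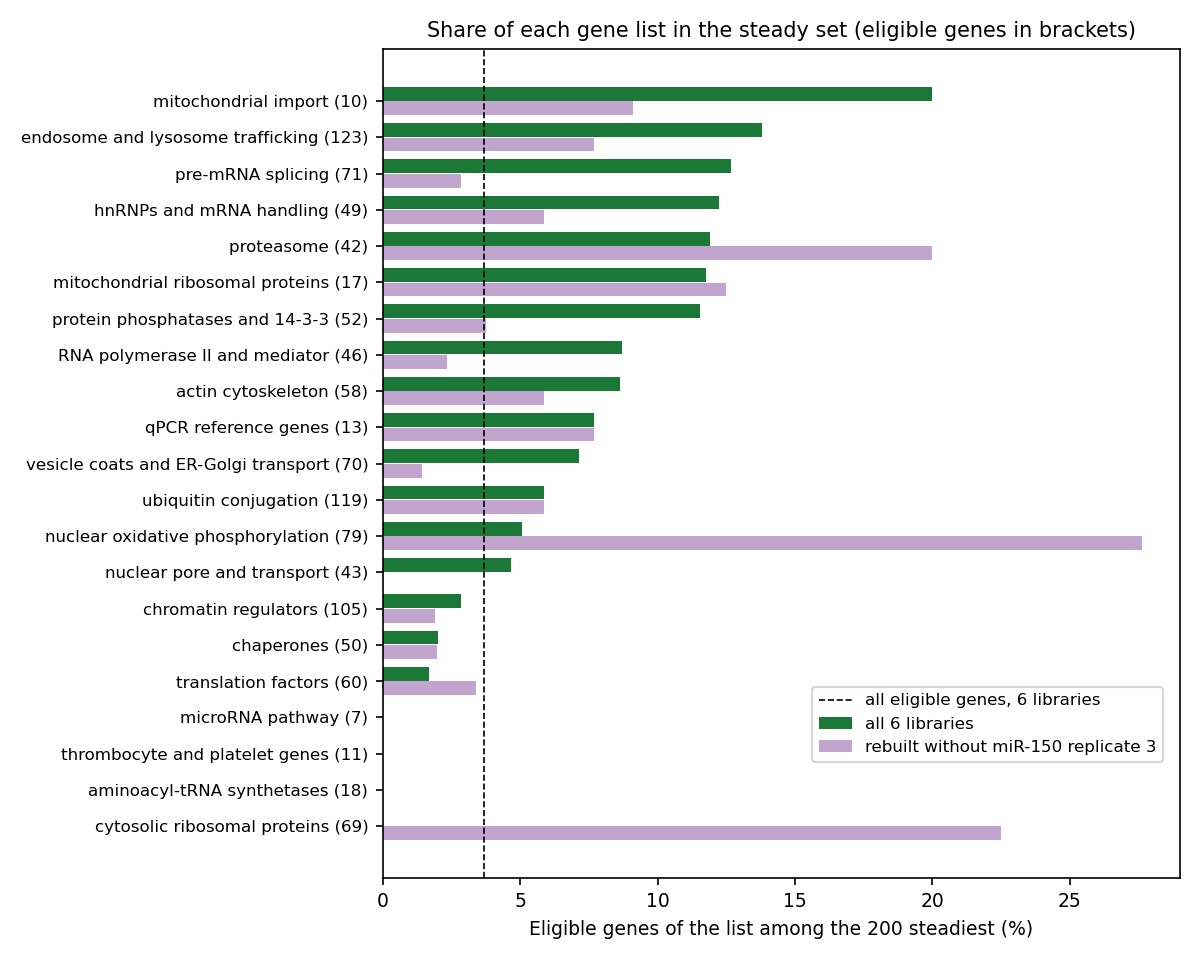
Percent of the eligible genes of each list that are among the 200 steadiest, with the number of eligible genes in brackets; green bars use all 6 libraries and violet bars the set rebuilt without miR-150 replicate 3. The dashed line is the 3.67% of all eligible genes. Ribosomal proteins have no green bar and a violet one at 22.5%.

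Genes were also chosen on 5 libraries and then looked at in the sixth, which the choice did not use. This was done for each library in turn. With miR-150 replicate 1 left out, 196 of the 200 genes chosen on the other 5 (98.0%) lay within 2-fold of their mean in those 5, against 88.2% of the other eligible genes. With miR-150 replicate 2 left out the count was 183 (91.5%), against 83.6% of the others. With control replicates 1, 2 and 3 left out the counts were 184 (92.0%), 196 (98.0%) and 196 (98.0%), against 74.5%, 85.8% and 86.3% of the others. In these 5 cases more of the chosen genes than of the rest lay within 2-fold. The median distance was 1.24-fold for the chosen genes and 1.30-fold for the rest in miR-150 replicate 1, and nearly equal, at 1.34-fold and 1.35-fold, in miR-150 replicate 2. In the controls it was 1.23-fold to 1.26-fold for the chosen genes and 1.33-fold to 1.40-fold for the rest.

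miR-150 replicate 3 was different. Of 200 genes chosen on the other 5 libraries, 91 (45.5%) lay within 2-fold of their mean in it, against 44.1% of the other eligible genes. In it 40 of the 200 were over 2-fold higher and 69 over 2-fold lower. The median distance from the mean of the other 5 was 2.13-fold for the chosen genes and 2.20-fold for the rest. Only 43 of the 200 genes chosen without this library were among the 200 chosen with it, whereas omission of any other library left 113 to 143 shared. The genes on which this library departed had a pattern by function. The set rebuilt without it held 18 of 80 eligible genes of the ribosomal list (22.5%), and all 18 were over 2-fold higher in miR-150 replicate 3, by a median of 3.23-fold. RPL5, of the large subunit, had 85.9, 112 and 474 CPM in miR-150 replicates 1, 2 and 3, against 96.6, 104 and 93.4 CPM in the controls. The rebuilt set also held 21 of 76 genes of the oxidative phosphorylation list (27.6%), 14 of them over 2-fold higher in miR-150 replicate 3. Among these, NDUFB7 of complex I had 44.1, 45.2 and 149.7 CPM in the miR-150 libraries, against 48.01, 49.95 and 41.03 CPM in the controls. Other genes that had been steady in 5 libraries were far lower in the same library. CLTC, the clathrin heavy chain, had 197, 173 and 41.3 CPM in the miR-150 libraries and 211, 196 and 183 CPM in the controls, and ZYX, the focal adhesion protein zyxin, had 272, 267 and 24.5 CPM against 319.8, 326 and 335 CPM. These examples were chosen after their values were seen. The list counts given further above moved as well: without this library the endosome list held 10 of 130, the splicing list 2 of 70, the proteasome list 8 of 40 and the phosphatase list 2 of 53. Of the smaller groups, protein phosphatase 2A held 0 of 13, the U5 and tri-snRNP group 0 of 9 and the COP9 signalosome 0 of 6. The oligosaccharyltransferase held 0 of 9, the Rab GTPases 1 of 29, the citric acid cycle 1 of 17 and the U2 factors 1 of 11. Vesicle coats held 1 of 70, the vacuolar ATPase 2 of 15, clathrin and its adaptors 2 of 18 and glycolysis 2 of 17. The membership of several of these groups thus changed without this library, where the limit also fell to 1.336. Some groups changed with other libraries too. The U2 factors held 0 of 11 without miR-150 replicate 2 and 0 of 11 without control replicate 1. The U5 and tri-snRNP group held 1 of 10 without each control library. Protein phosphatase 2A held 2 to 4 of 13 when any of the other 5 was left out. Membership of the 200 genes, and with it the count of ribosomal genes, changed more with this library than with any of the other 5. A core of 31 genes was chosen in each of the 6 sets of 5 libraries and in the full set, and it included CS, phc2a, THOC1, TALDO1, ERLEC1, GNAS, OTUB1, PSMB5, MRPS30, cycsb, PIGS, AP2B1, CHD9, atp6v1e1b and ube2d1b. Omission of a library cannot raise the ratio of a gene, and the lowest limit of the 6 sets was 1.336. Genes with a ratio up to that limit, CS to PIGS in this list, were thus in the core by construction. The core is a description and no support for their steadiness.

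**Figure D4:**
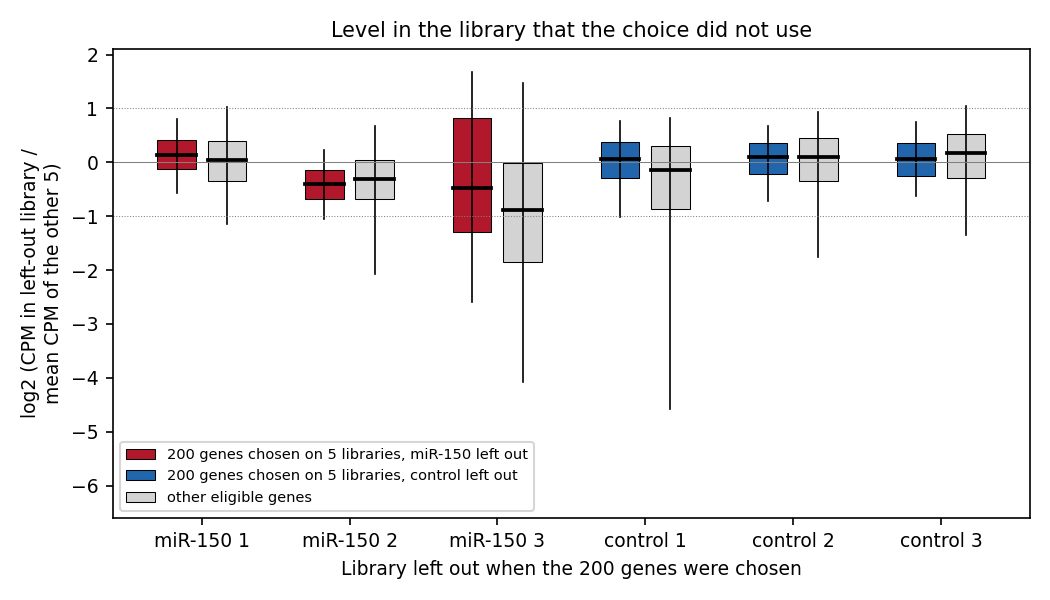
Level in the library that the choice did not use, as log2 of its CPM over the mean CPM of the other 5, for 200 genes chosen on those 5 (red or blue boxes) and for the other eligible genes (grey boxes). Boxes are quartiles with the median, whiskers run from 5 to 95% of the genes, and dotted lines mark a 2-fold distance. In miR-150 replicate 3 the red box (-1.30 to 0.82) is wider than the grey one (-1.85 to -0.003), while its whiskers span less. Only 45.5% of the chosen genes lie within 2-fold there.

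Membership also changed with the scale of measurement. The trimmed mean of M-values (TMM), which sets libraries equal over the bulk of genes and not over their totals, gave factors of 1.15, 0.845 and 0.814 for miR-150 replicates 1, 2 and 3, against 0.925, 1.15 and 1.19 for control replicates 1, 2 and 3, so that the highest was 1.46 times the lowest. On TMM-scaled CPM the median ratio of the 200 genes was 1.71 (1.11 for the lowest and 2.35 for the highest), 90 of them had a ratio within the original limit of 1.65, and 66 were among the 200 steadiest on that scale. The highest value fell in miR-150 replicate 3 for 100 of the 200 genes and in control replicate 3 for 1, and the lowest fell in control replicate 3 for 77 and in miR-150 replicate 3 for 0. On the TMM scale the genes level by totals thus had their highest values mostly in miR-150 replicates 2 and 3 and control replicate 1. These are the libraries with the lowest factors, so the pattern follows from the choice by totals and nothing is read from it. In the 200 chosen on that scale the endosome list had 9 of 123 genes, the splicing list 10 of 73, the Rab GTPases 5 and vesicle coats 7 of 71, while the proteasome and oxidative phosphorylation lists had 0 of 42 and 0 of 81. The ribosomal list had 0 of 74 on this scale too. The actin list had 1 of 55, the citric acid cycle 1 of 17, the COP9 signalosome 0 of 7 and the GPI transamidase 0 of 2. Clathrin and its adaptors had 2 of 18, the vacuolar ATPase 2 of 15 and protein phosphatase 2A 3 of 13. The U5 and tri-snRNP group had 2 of 10, the U2 factors 2 of 11 and the oligosaccharyltransferase 2 of 9. By gene, CCNT2 had the lowest TMM ratio of the 200, with 73.0, 65.8 and 70.7 TMM-scaled CPM in the miR-150 libraries and 66.1, 68.5 and 71.3 in the controls, and UBE2F the highest.

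**Figure D5:**
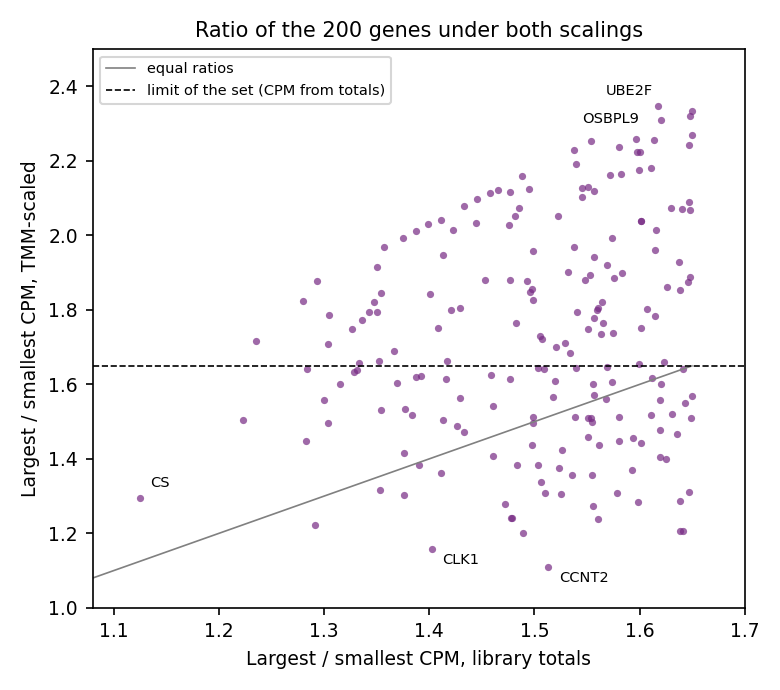
Ratio of largest to smallest CPM of each of the 200 steady genes by library totals (horizontal axis) and after TMM scaling (vertical axis), with 1 point per gene. The grey line marks equal ratios and the dashed line the limit of 1.65; 90 genes lie at or under it, and CCNT2 is lowest at 1.11.

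The design asked which transcripts differed between thrombocytes that overexpressed miR-150 and controls. Of 15722 genes tested with edgeR's quasi-likelihood test on all 6 libraries, 0 (0%) had an adjusted p below 0.05, and 855 had an unadjusted p below 0.05. DESeq2's Wald test called 254 of all genes tested. None of the 200 steady genes was called by either tool, and none had an unadjusted p below 0.05 in edgeR or DESeq2. As the choice on steadiness itself limits the difference a gene can show between groups, nothing is read from this. The median log2 fold change of miR-150 over control was 0.15 for the 200 genes, with a range from -0.30 to 0.74, and 0.04 for all genes tested. It was above 0 for 155 of the 200 on the TMM scale of the test, but by library totals the median log2 ratio of the group means was -0.07 and 72 were above 0. The direction of the 200 genes between groups thus turned with the scaling. The median standard error of a log2 fold change was 0.362 for the 200 genes and 0.939 over all genes tested.

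The largest log2 fold change among the 200 belonged to OSBPL9, a carrier of lipids between membranes. It had 56.5, 67.9 and 66.7 CPM in the miR-150 libraries and 43.8, 50.4 and 41.9 CPM in the control libraries. Its log2 fold change was 0.74 with a standard error of 0.365 (edgeR adjusted p = 0.974). PTPA, given above, followed at 0.71 ± 0.410, and dync1i2b (a dynein intermediate chain), SLC25A20 and ALDH7A1 (an aldehyde dehydrogenase of lysine breakdown) had 0.67, 0.65 and 0.64. All 5 were positive on the TMM scale of the test, and none passed the test. SLC25A20 had 48.5, 40.1 and 54.0 CPM in the miR-150 libraries and 35.75, 32.76 and 37.97 CPM in the control libraries, without overlap on either scale. At the other end stood alyref, at -0.30. The order depended on the scale. By totals the largest absolute log2 ratio of group means among the 200 was 0.545. It was that of alyref, with means of 128 CPM in the miR-150 group and 187 CPM in the control group.

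On the TMM scale, all 3 miR-150 values lay above all 3 control values for 13 of the 200 genes and below for 0. Over all genes tested the groups did not overlap for 13.6%, with miR-150 higher for 7.64% and lower for 5.95%. By totals the miR-150 values lay above for 8 of the 200 and below for 22, and over all genes tested the groups did not overlap for 14.6%, with 5.71% higher and 8.92% lower. Among the other eligible genes, which are of like abundance, miR-150 was higher for 6.27% and lower for 9.5% on the TMM scale (15.8% in all), and higher for 4.63% and lower for 15.5% by totals (20.2% in all). The share of the 200 genes without overlap by totals, 15%, is close to that of all genes tested and below that of the other eligible genes, and the 6.5% on the TMM scale is below both. Because the choice on steadiness limits this share, nothing is read from it. The 13 genes were NFX1, mffa, LCLAT1, septin15, COPS3, PTPA, HSPA4, GPAA1, OSBPL9, SF3A1, FUBP3, pelp1 and SLC25A20. Among them GPAA1, a subunit of the enzyme that attaches GPI anchors and in the set together with its partner PIGS, had 27.49, 22.66 and 19.98 CPM in the miR-150 libraries and 17.02, 18.04 and 17.71 CPM in the controls. By totals the genes below included the oligosaccharyltransferase subunits DDOST and RPN2, which add sugar chains to new proteins and are 2 of 9 eligible genes of that complex. DDOST had 149.7, 133 and 139.7 CPM in the miR-150 libraries and 184, 162 and 179.6 CPM in the controls. The transcription factor gene MYC, also among them, had 58.4, 64.2 and 74.9 CPM in the miR-150 libraries and 87.3, 81.1 and 84.5 CPM in the controls. On the TMM scale the groups of DDOST and of MYC overlapped.

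Genes that serve as PCR references in zebrafish spanned a wide range of ratios. Of 13 such genes that were eligible, 1 was in the set (7.69%, against 3.67% of all eligible genes), and their median ratio was 2.96, against 3.73 for all eligible genes. That gene was POLR2D, with a ratio of 1.48, and lsm12b missed the limit at rank 204. On the TMM scale the order turned. There lsm12b, with a ratio of 1.54, was the 1 of 13 among the 200 steadiest, and POLR2D, at 1.62, lay outside the limit of 1.56. The gene lsm12b had 55.8, 37.9 and 56.2 CPM in the miR-150 libraries and 61.3, 62.7 and 56.8 CPM in the control libraries. MOB4, TMEM50A, UBE2A and SDHA had ratios by totals of 1.96, 2.18, 2.491 and 2.498. The ribosomal references RPL13, RPL8, RPS18 and RPL13A had ratios of 2.96, 3.20, 3.56 and 5.14. RPL13A, at 81.2, 114 and 417 CPM in miR-150 replicates 1, 2 and 3 against 94.7, 104 and 95.3 CPM in the controls, was level in 5 libraries and raised in miR-150 replicate 3. HPRT1, tuba1b and GAPDH had ratios of 4.002, 9.53 and 11.7. Abundant references that the rule drops had ratios of 1.803 (ppiab), 1.89 (ubc), 2.34 (actb1), 2.54 (eef1a1l1) and 3.95 (GAPDHS), and actb2, also dropped, had 3.37. The plot of steadiest and reference genes gives 8 of each, and the steadiest are level there because the rule chose them so.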

How the data were processed

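Raw read counts per Ensembl gene were deposited by the authors as a table with 6 columns, all of which were used. Per the submitters' processing notes, the tools included STAR 2.7.10b, HTSeq 0.11.3 and edgeR, with build GRCz11. Annotation release, use of strand and handling of duplicates are not given in the sources used here, so overlapping, antisense and near-identical genes may share reads. Symbols came from a table of gene names, which named 29201 of 32520 identifiers and all 200 genes of the set; many are in human style.

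CPM used column totals. Genotypes were compared with edgeR 4.0.16 in R 4.3.3 on counts as deposited (glmQLFit and glmQLFTest, TMM, filterByExpr, 15722 genes, Benjamini-Hochberg over all genes tested, adjusted p below 0.05); DESeq2 1.42.0 was an alternative. The scripts were tested on simulated data, as a check that they run correctly. The simulated spread between replicates was smaller than in these data, whose biological coefficient of variation was 1.03 over all genes tested. The simulations thus give no measure of power here. Same-numbered libraries did not deviate together (correlations -0.19, -0.10 and -0.04), so the numbers were not treated as pairs. All pairs of libraries differed beyond counting error (lowest chi-square per degree of freedom 100.4).

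The 200 genes, the lists and the markers were chosen with earlier results of these data known. Genes were named by rule: the 10 lowest ratios, the 5 highest and lowest means, 5 on each side of the limit, up to 4 per list, the 5 largest fold changes and the PCR references. Some of these are not reported here. Others were named after their values were seen. Promoter and protein features were not analysed here.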

Additional observations from a re-analysis of the deposited data

How the results depend on the processing

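Of the 200 genes, 66 were kept with TMM scaling, 71 with DESeq2 size factors and 115 with a mean of at least 50 CPM, and the omission of 1 library kept 43 to 143. Ranking by coefficient of variation or SD of log2 values, a minimum of 10 CPM, or no dropped genes kept 167, 171, 178 and 188. Totals without the 113 raised genes kept 77, and totals without the 200 dropped genes 119, both chosen after seeing the data. The difference in share of counts (miR-150 minus control) was -0.0859 percentage points, and it was 0.142 with TMM, 0.180 without the raised genes and -0.122 to -0.0463 with a library omitted. Genes of the set whose groups do not overlap numbered 13 on the TMM scale, 30 by totals and 21 to 64 with a library omitted, where 3 against 2 values overlap less easily. DESeq2's Wald test called 254 genes in all, 0 of the 200. edgeR called 0 genes as reported, 0 in a fit that blocks on replicate number (552 at an unadjusted p below 0.05) and 0 with each library omitted (678 to 1312). Of 648 comparisons of single log2 fold changes, 646 stayed within the replicate SD, and 84 changed sign without a call. Most of these comparisons omitted 1 library. Such an omission moves a mean of 3 values by only part of their SD, so the 646 are no measure of stability. The causes were not tested. Each value of the set rested on at least 234 counts. Counting error (median coefficient of variation 3.18%) was small beside the observed spread between libraries (median 16.2%), which limits precision more.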

Other observations

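The 66 genes that were among the 200 steadiest both by totals and on the TMM scale included CS, GNAS, CCNT2, CLK1 (a kinase of splicing factors), SEPTIN7 (a septin of the cortical cytoskeleton), CPSF6 (of 3′ end processing) and AFG3L2 (a mitochondrial protease). On the TMM scale CLK1 had a ratio of 1.16, SEPTIN7 1.20, CPSF6 1.21, AFG3L2 1.21 and GNAS 1.22. SEPTIN7 had 197, 157 and 144 CPM by totals in the miR-150 libraries and 186, 192 and 215 CPM in the control libraries. The nuclear matrix gene matr3l1.1, just outside the limit by totals, had a TMM ratio of 1.22. These genes were picked out after their values were seen.

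Some genes of the set act in mammalian platelets or in their signalling, and were also picked out after their values were seen. CD82, a tetraspanin of the cell surface, had 115, 94.1 and 75.6 CPM in the miR-150 libraries and 99.5, 99.9 and 101 CPM in the control libraries, so its control values lay almost on a point. RGS2, which shortens G protein signals, had 117, 97.5 and 143 CPM in the miR-150 libraries and 126, 144 and 147 CPM in the control libraries. MAP2K6, a kinase upstream of p38, had 149, 97.2 and 114 CPM in the miR-150 libraries and 109, 110.1 and 97.8 CPM in the control libraries. The groups overlap in each.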
